A study of Mus musculus with 20 samples.

Results

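The Wnt set described here holds the secreted Wnt ligands, their Frizzled receptors, the secreted antagonists of both, and 4 genes of the nuclear response and its feedback, in mouse embryonic stem cells, their differentiated progeny and fibroblasts. Members were chosen by symbol alone: Wnt, Fzd, Dkk or Sfrp followed by a number with an optional a or b, plus Frzb, Wif1, Axin2, Lef1, Tcf7 and Sp5. The rule found 43 of the 22102 entries of the time course table, made up of 19 ligands, 10 receptors, 10 antagonists and 4 nuclear and feedback genes. In the second table, called the discovery table here, it found the same 43 symbols in 44 of 42115 entries with values, because Fzd10 was listed under 2 Ensembl identifiers.

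The series held 20 libraries of mRNA from mouse cells, sequenced to study Braveheart, a long non-coding RNA that was depleted with short hairpin RNAs in stem cells driven towards heart muscle. In the time course, E14 embryonic stem cells of strain 129/Ola carried hairpin A or hairpin B against Braveheart, or a scrambled hairpin, and gave 1 library per culture on days 0, 3, 6 and 9. All 3 cultures had received a lentiviral pLKO.1 vector and puromycin selection, so the scrambled cells share both with the depleted ones. The labels set out both differentiation in embryoid bodies and directed differentiation to cardiomyocytes, and they do not assign either to a given library. The level of Braveheart was not analysed here.

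The discovery set of 8 libraries held 2 partially reprogrammed lines, 1 line of mouse induced pluripotent stem cells (miPS MCV8.1), 2 libraries each of the wild type embryonic stem cell (mESC) lines E14 and v6.5, and 1 library of embryonic fibroblasts (MEF). The partially reprogrammed lines, 11.3 (MCV6) and 11.5 (MCV8), are each 1 subclone. They and the miPS line were Oct4-GFP fibroblasts carrying retroviral Oct4, Sox2, c-myc and Klf4, and the MEF library came from the Oct4-GFP fibroblasts used for that reprogramming. All lines were of strain 129/svJae x C57BL/6, except E14, which was 129/Ola. Per the labels, stem cells and miPS cells were grown on irradiated MEF feeders that were removed by pre-plating, whereas 11.3 and 11.5 were grown without feeders. Nothing in the labels says that the replicates of a line came from separate cultures, so p-values measure the spread between these libraries.

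Wnt ligands are lipid-modified proteins that bind Frizzled receptors together with the co-receptors Lrp5 and Lrp6. Canonical signalling stabilises beta-catenin, which acts with transcription factors of the TCF/LEF family, among them Lef1 and Tcf7, while other ligands such as Wnt5a act mainly through pathways of cell polarity and movement. Dkk proteins block the co-receptors, and Sfrp proteins, Frzb and Wif1 bind the ligands outside the cell. Axin2 and Sp5 are direct targets that feed back on the pathway. In embryonic stem cells canonical signalling helps to maintain pluripotency, and in the early embryo it is needed for the primitive streak and mesoderm, after which its inhibition favours heart formation.

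To show where TCF/LEF proteins could bind near genes read out below, the promoters of Sp5, Dkk1 and Axin2 are printed from 250 bases before to 50 bases after the gene's start (RefSeq, build GRCm38.p6, 5′ to 3′ on the gene's strand), with the letters CTTTGA or CTTTGT, on either strand, in capitals. These 2 motifs cannot overlap each other in the same orientation.
Sp5, chr2:70474673-70474972, plus strand: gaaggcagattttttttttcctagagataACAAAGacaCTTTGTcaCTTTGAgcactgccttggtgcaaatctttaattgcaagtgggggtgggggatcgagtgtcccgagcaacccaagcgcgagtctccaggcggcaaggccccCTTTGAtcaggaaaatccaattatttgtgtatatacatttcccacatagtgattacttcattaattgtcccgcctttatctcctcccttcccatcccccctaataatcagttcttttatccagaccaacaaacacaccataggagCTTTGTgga
Dkk1, chr19:30549447-30549746, minus strand: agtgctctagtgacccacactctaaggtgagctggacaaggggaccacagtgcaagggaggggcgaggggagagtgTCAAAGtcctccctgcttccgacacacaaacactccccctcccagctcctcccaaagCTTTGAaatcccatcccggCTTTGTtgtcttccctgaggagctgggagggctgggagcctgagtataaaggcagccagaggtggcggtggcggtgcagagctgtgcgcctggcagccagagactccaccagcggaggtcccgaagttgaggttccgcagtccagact
Axin2, chr11:108920099-108920398, plus strand: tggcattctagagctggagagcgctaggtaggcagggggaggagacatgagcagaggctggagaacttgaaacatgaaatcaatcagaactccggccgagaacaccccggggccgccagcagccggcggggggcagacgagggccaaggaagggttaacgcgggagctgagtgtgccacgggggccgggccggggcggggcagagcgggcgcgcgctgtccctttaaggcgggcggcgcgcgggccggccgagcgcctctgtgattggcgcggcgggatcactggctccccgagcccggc
Sp5 held 5 matches, Dkk1 held 3 and Axin2 none. At least 4 matches occurred in 0.17% of all 32851 promoters of this length. Of the 43 symbols, 31 had a RefSeq promoter, in 38 windows, and 11 of these windows (28.9%) held at least 1 match, against 31.2% of all promoters. A match describes the letters and not a bound site.

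The discovery libraries held between 7536503 and 23662593 expected reads, so 3 reads were between 0.127 and 0.398 CPM, a library's reads scaled to a fixed total. The time course table gave no read totals, and its smallest FPKM steps put 3 reads on 1 kb at between 0.273 and 0.446 FPKM. These floors cover counting error only. Hairpin B cells stood apart from the other cultures on days 6 and 9. The summed FPKM of 8 pluripotency markers was 815 and 443 in hairpin A cells on days 6 and 9, 1996 and 2408 in hairpin B cells, and 608 and 384 in scrambled cells, where day 0 cultures had between 2576 and 2746. The summed FPKM of 6 cardiomyocyte markers on day 9 was 70.5 in hairpin A cells, 11.4 in hairpin B cells and 419 in scrambled cells. Late results of members called in the time course are therefore given with and without these 2 libraries. The choice to leave them out was made from markers in the same data. It removes spread between cultures, so p-values without these libraries depend on it. Each late day then rests on 1 hairpin A and 1 scrambled library. In bulk libraries, fewer cells of a type and less RNA per cell cannot be told apart.

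Most receptors were detected throughout the time course. All 10 Frizzled genes passed the filter of 1 FPKM in at least 2 libraries, and 8 of them had at least 1 FPKM in all 12 libraries. Of the 19 ligands, 14 passed, 3 reached 10 FPKM in any library (Wnt8a, Wnt1 and Wnt5a) and 2 had at least 1 FPKM in all 12 (Wnt8a and Wnt9a). Of the 10 antagonists, 8 passed and 4 reached 10 FPKM. All 4 nuclear and feedback genes passed and reached 10 FPKM. The 7 members that did not pass were Wnt3a, Wnt7a, Wnt9b, Wnt10a, Wnt16, Dkk4 and Wif1, of which Wnt3a had the highest value, 1.65 FPKM in hairpin A cells on day 9. Counts below over the 36 members that passed describe those 36 only, since a member that passed only through the stage or culture where it is high had to differ from the others.

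**Figure D1:**
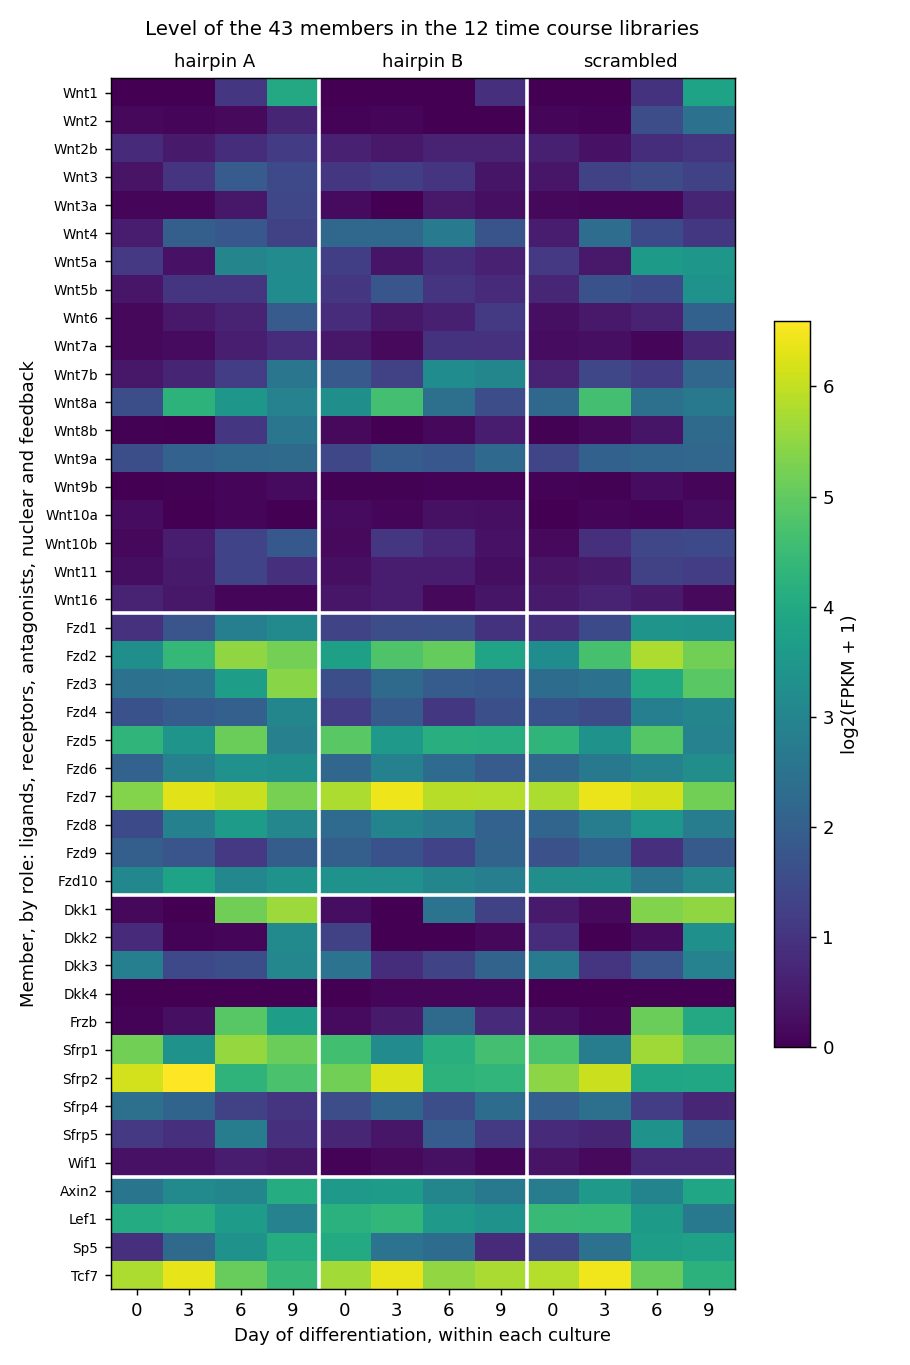
Level of each of the 43 members as log2(FPKM + 1) (colour scale) in the 12 time course libraries, with members in rows by role and days 0, 3, 6 and 9 in columns within hairpin A, hairpin B and scrambled cells. Fzd7, Tcf7 and Sfrp2 stay bright throughout, and Dkk1, Frzb and Wnt1 are dark on days 0 and 3 and bright on day 9 in hairpin A and scrambled cells.

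The course of differentiation was tested as each later day against day 0 over the 3 cultures, with limma on log2(FPKM + 1), a scale that understates the change of low genes. On day 3, 1 of 36 members was higher and 2 were lower, where 3.26% and 2.78% of all 14108 genes were called higher and lower. On day 6, 6 members were higher and 3 lower, beside 4.97% and 3.71% of all genes. On day 9, 6 were higher and 3 lower, beside 10.3% and 6.22% of all genes. Without the hairpin B libraries of days 6 and 9, the counts were 9 higher and 5 lower on day 3 (14.5% and 12.6% of 13994 genes), 18 and 7 on day 6 (27.4% and 18.9%), and 22 and 6 on day 9 (35.6% and 24.5%). With culture as a replicate block the counts were 6, 10 and 15 members on days 3, 6 and 9.

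These counts moved with single libraries. On day 3 no member was called when the day 0 library of scrambled or hairpin A cells, or the day 3 library of scrambled or hairpin B cells, was left out, 1 was called without the day 3 library of hairpin A cells, and 9 without the day 9 library of hairpin B cells. On day 6 the count was 0 without the day 0 or day 6 scrambled library, 5 without the day 3 scrambled library, 2, 5 and 1 without the day 0, day 3 and day 6 libraries of hairpin A cells, and 4 and 18 without the day 3 and day 9 libraries of hairpin B cells. On day 9 it was 0, 5, 4 and 1 without the day 0, 3, 6 and 9 scrambled libraries, 1, 5 and 2 without the day 0, 3 and 9 libraries of hairpin A cells, and 5, 5 and 27 without the day 0, 3 and 9 libraries of hairpin B cells.

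Among the ligands, Wnt8a, which is expressed in the early primitive streak, rose on day 3. Wnt8a had 1.98, 18.4, 10.3 and 6.64 FPKM on days 0, 3, 6 and 9 in hairpin A cells, 8.78, 23.6, 4.44 and 1.95 FPKM in hairpin B cells, and 3.66, 23.7, 4.39 and 5.31 FPKM in scrambled cells. Every day 3 library stood above every day 0 library, and the difference was 2.15 ± 0.50 (SE), adjusted p = 0.0377. By day 6 the range was from 4.39 to 10.3 FPKM, and it overlapped that of day 0.

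Wnt1, Wnt8b and Wnt6, ligands that are known from the developing neural tube and the early embryo, were called higher on day 9. Wnt1 had 0, 0, 1.06 and 14.7 FPKM on days 0, 3, 6 and 9 in hairpin A cells, 0, 0, 0 and 0.856 FPKM in hairpin B cells, and 0, 0, 0.961 and 13.1 FPKM in scrambled cells. It was listed at 0 in all 6 libraries of days 0 and 3, so no fold is given, and the day 9 value of hairpin B cells was far below the other two (adjusted p = 0.0288). Wnt8b had 0.0316, 0, 1.07 and 5.03 FPKM on days 0, 3, 6 and 9 in hairpin A cells, 0.123, 0, 0.0969 and 0.405 FPKM in hairpin B cells, and 0.0253, 0.0986, 0.299 and 3.87 FPKM in scrambled cells. Wnt6 had 0.108, 0.358, 0.587 and 2.69 FPKM on days 0, 3, 6 and 9 in hairpin A cells, 0.795, 0.334, 0.494 and 1.19 FPKM in hairpin B cells, and 0.215, 0.377, 0.559 and 3.12 FPKM in scrambled cells. Wnt6 reached 1 FPKM only on day 9, and Wnt1 and Wnt8b only on days 6 and 9. All of them passed the filter through those libraries alone, so their higher late direction was fixed by the filter and is a description. For Wnt6 all 3 day 9 libraries lay above all 3 day 0 libraries, with a log2 difference of 1.26 ± 0.26 (SE), adjusted p = 0.022. For Wnt8b the difference was 1.71 ± 0.47 (SE), adjusted p = 0.0429. Without the late hairpin B libraries the day 9 differences were 1.54 ± 0.20 (SE), adjusted p = 0.000369 for Wnt6 and 2.39 ± 0.18 (SE), adjusted p = 2.91e-05 for Wnt8b, and the adjusted p of Wnt1 was 9.28e-07.

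Wnt9a showed a small rise that was shared by all 3 cultures. Wnt9a had 2, 3.19, 3.69 and 3.85 FPKM on days 0, 3, 6 and 9 in hairpin A cells, 1.63, 2.75, 2.47 and 3.8 FPKM in hairpin B cells, and 1.6, 3.11, 3.44 and 3.51 FPKM in scrambled cells. The log2 difference from day 0 was 0.61 ± 0.16 (SE), adjusted p = 0.0466 on day 6 and 0.79 ± 0.16 (SE), adjusted p = 0.0204 on day 9, and on both days all 3 cultures were above every day 0 value. With the late hairpin B libraries left out they were 0.75 ± 0.12 (SE), adjusted p = 0.00193 and 0.78 ± 0.12 (SE), adjusted p = 0.000967.

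The ligand Wnt5a, which acts mainly outside the beta-catenin pathway, differed between the cultures on the late days. Wnt5a had 1.13, 0.26, 7.07 and 8.16 FPKM on days 0, 3, 6 and 9 in hairpin A cells, 1.34, 0.294, 0.821 and 0.523 FPKM in hairpin B cells, and 1.12, 0.365, 11.1 and 10.2 FPKM in scrambled cells. Hairpin A and scrambled cells were high on days 6 and 9 and hairpin B cells were not, and Wnt5a was not called on either day with all libraries. Without the late hairpin B libraries the difference on day 9 was 2.17 ± 0.16 (SE), adjusted p = 2.76e-05. In that fit 12 of 14 ligands were called higher on day 9 and none lower, where 35.6% and 24.5% of all genes were called. Of these 12, Wnt1, Wnt2, Wnt2b, Wnt6, Wnt8b and Wnt11 reached 1 FPKM only on days 6 and 9. The filter fixed their late direction, so the count is a description. Wnt5b was also among the 12, at 2.53 ± 0.26 (SE), adjusted p = 0.000112. On day 9 it had 8.23 FPKM in hairpin A cells, 0.725 FPKM in hairpin B cells and 9.25 FPKM in scrambled cells.

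Of the receptors, Fzd7 was the highest in every library of day 0 and is the main Frizzled gene of mouse embryonic stem cells. Fzd7 had 40.6, 78.3, 66.6 and 36.6 FPKM on days 0, 3, 6 and 9 in hairpin A cells, 53.8, 86, 58.6 and 57.2 FPKM in hairpin B cells, and 53.9, 83.2, 71.5 and 35.7 FPKM in scrambled cells. It was highest on day 3 in each culture and was not called on any day with all libraries. Fzd2 rose on days 6 and 9. Fzd2 had 8.68, 20.2, 44.1 and 36.4 FPKM on days 0, 3, 6 and 9 in hairpin A cells, 12.5, 26.5, 32.1 and 13.4 FPKM in hairpin B cells, and 8.2, 24.4, 54.5 and 35.7 FPKM in scrambled cells. All day 6 and day 9 values were above all day 0 values, and the log2 differences were 2.03 ± 0.35 (SE), adjusted p = 0.0129 and 1.34 ± 0.35 (SE), adjusted p = 0.0374. They were 2.23 ± 0.20 (SE), adjusted p = 0.000112 and 1.80 ± 0.20 (SE), adjusted p = 0.000147 without the late hairpin B libraries. In that fit Fzd7 was called higher on day 3, at 0.74 ± 0.11 (SE), adjusted p = 0.00344, and on day 6, at 0.47 ± 0.13 (SE), adjusted p = 0.0172, and lower on day 9, at -0.44 ± 0.13 (SE), adjusted p = 0.0172.

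Fzd5, which is known from the yolk sac and eye, fell on day 9. Fzd5 had 19, 9.61, 33.5 and 6.38 FPKM on days 0, 3, 6 and 9 in hairpin A cells, 29.3, 10.9, 17 and 16.2 FPKM in hairpin B cells, and 19, 9.44, 28.1 and 6.58 FPKM in scrambled cells. The levels dipped on day 3 in each culture and were higher again on day 6, when they overlapped day 0. On day 9 all 3 cultures were below every day 0 value, and the log2 difference was -1.22 ± 0.35 (SE), adjusted p = 0.0447. It was -1.59 ± 0.18 (SE), adjusted p = 0.000167 without the late hairpin B libraries.

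Fzd8 rose on day 6 and Fzd9 fell. Fzd8 had 1.79, 6.51, 11.5 and 7.35 FPKM on days 0, 3, 6 and 9 in hairpin A cells, 3.93, 6.92, 5.73 and 3.23 FPKM in hairpin B cells, and 3.45, 5.88, 10.1 and 5.79 FPKM in scrambled cells. Its 3 day 6 values lay above those of day 0, by 1.31 ± 0.32 (SE), adjusted p = 0.0386 on the log2 scale. Fzd9 had 3, 2.36, 1.15 and 2.87 FPKM on days 0, 3, 6 and 9 in hairpin A cells, 3.03, 2.17, 1.49 and 3.29 FPKM in hairpin B cells, and 2.1, 3.16, 0.894 and 2.63 FPKM in scrambled cells. The day 6 values of Fzd9 were below every day 0 value, at -0.77 ± 0.18 (SE), adjusted p = 0.034, and those of day 9 overlapped day 0. Without the late hairpin B libraries the day 6 differences were 1.59 ± 0.24 (SE), adjusted p = 0.00125 for Fzd8 and -0.86 ± 0.18 (SE), adjusted p = 0.00516 for Fzd9, and Fzd8 was also called on day 9, at 0.95 ± 0.24 (SE), adjusted p = 0.00981.

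Fzd3, a receptor of the cell polarity pathway known from axon growth, also differed between the cultures. Fzd3 had 4.58, 4.69, 12.1 and 41.7 FPKM on days 0, 3, 6 and 9 in hairpin A cells, 2.02, 3.84, 2.75 and 2.55 FPKM in hairpin B cells, and 4.07, 4.47, 15.5 and 29.1 FPKM in scrambled cells. Days 6 and 9 were high in hairpin A and scrambled cells and not in hairpin B cells, and the day 9 difference without the late hairpin B libraries was 3.01 ± 0.28 (SE), adjusted p = 7.07e-05. Fzd10 had 7.53, 13.1, 7.51 and 9.42 FPKM on days 0, 3, 6 and 9 in hairpin A cells, 9.25, 9.15, 7.2 and 6.13 FPKM in hairpin B cells, and 8.53, 8.73, 4.8 and 7.36 FPKM in scrambled cells. Fzd10 overlapped between day 0 and day 9 and was not called. Fzd1, Fzd4 and Fzd6 did not reach 10 FPKM in any library, and their highest values were 9.67, 7.10 and 9.07 FPKM. None of them was called with all libraries. In the fit without the late hairpin B libraries all were called higher on days 6 and 9. The day 9 differences were 2.20 ± 0.22 (SE), adjusted p = 0.000105 for Fzd1 and 1.47 ± 0.26 (SE), adjusted p = 0.00178 for Fzd4. For Fzd6 it was 1.16 ± 0.13 (SE), adjusted p = 0.000186.

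**Figure D2:**
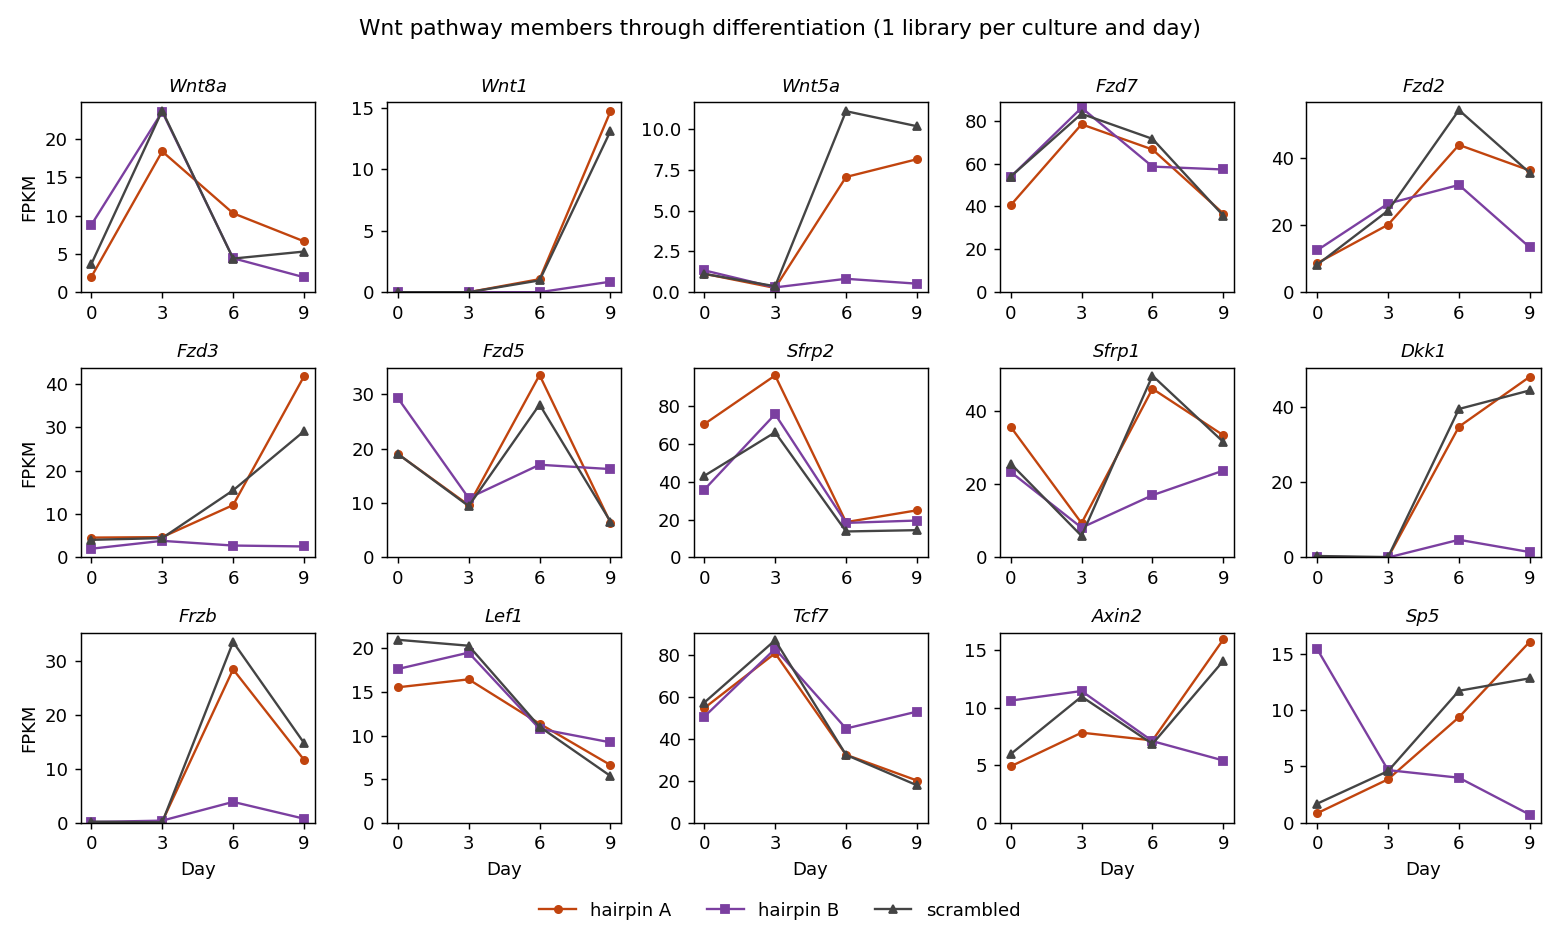
FPKM of 15 members (vertical axes, each from 0) against day of differentiation (horizontal axes) in hairpin A (circles), hairpin B (squares) and scrambled cells (triangles), with 1 library per point. Wnt8a peaks on day 3 in each culture, and Dkk1 reaches 48.2 FPKM in hairpin A cells, 1.44 FPKM in hairpin B cells and 44.5 FPKM in scrambled cells on day 9.

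The antagonists changed in both directions. Dkk1, a Dickkopf protein that blocks Lrp5 and Lrp6 and is needed for head formation, and Frzb, a soluble Frizzled-related protein, rose on day 6. Dkk1 had 0.0986, 0, 34.9 and 48.2 FPKM on days 0, 3, 6 and 9 in hairpin A cells, 0.192, 0, 4.72 and 1.44 FPKM in hairpin B cells, and 0.395, 0.115, 39.6 and 44.5 FPKM in scrambled cells. Frzb had 0.0369, 0.215, 28.4 and 11.7 FPKM on days 0, 3, 6 and 9 in hairpin A cells, 0.144, 0.402, 3.88 and 0.762 FPKM in hairpin B cells, and 0.207, 0.0863, 33.5 and 14.8 FPKM in scrambled cells. Both were near or under the level of 3 reads on days 0 and 3, and every day 6 value was above every day 0 value. They reached 1 FPKM only on days 6 and 9 and passed the filter through those libraries alone. Their higher late direction was thus fixed by the filter and is a description. The log2 differences on day 6 were 4.05 ± 1.02 (SE), adjusted p = 0.0409 for Dkk1 and 3.92 ± 0.82 (SE), adjusted p = 0.0247 for Frzb. On day 9 Dkk1 was still called, at 3.85 ± 1.02 (SE), adjusted p = 0.0385, and Frzb was not. Without the late hairpin B libraries both were called on both days, with day 6 differences of 4.94 ± 0.13 (SE), adjusted p = 6.68e-07 for Dkk1 and 4.81 ± 0.17 (SE), adjusted p = 2.79e-06 for Frzb, and day 9 differences of 5.25 ± 0.13 (SE), adjusted p = 6.18e-07 for Dkk1 and 3.64 ± 0.17 (SE), adjusted p = 4.12e-06 for Frzb.

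Markers of several cell types were also lower on day 9 in hairpin B cells than in the other cultures. The 5 endoderm markers summed to between 0.555 and 1.10 FPKM on day 0. On day 9 they summed to 54.0 FPKM in hairpin A cells, 2.85 FPKM in hairpin B cells and 65.9 FPKM in scrambled cells. In hairpin B cells 4 of them were under 0.5 FPKM. Primitive streak and mesoderm markers summed to 50.8, 6.84 and 36.8 FPKM in the same order, and blood markers to 95.4, 1.68 and 226 FPKM. The cardiomyocyte sums are given above. Endothelium markers, at 22.4, 43.4 and 36.5 FPKM, did not follow this order as a sum. However, Cdh5 and Kdr were under 0.5 FPKM in hairpin B cells, and no endothelium marker was in the other cultures. On day 0, with Cdh5 and Kdr under 0.5 FPKM in each culture, the sum was already between 21.4 and 32.4 FPKM. The part of these cell types in the levels of Dkk1 and Frzb was not tested. Dkk2 had 0.716, 0.0477, 0.0625 and 7.8 FPKM on days 0, 3, 6 and 9 in hairpin A cells, 1.43, 0, 0.0073 and 0.102 FPKM in hairpin B cells, and 0.803, 0, 0.162 and 8.9 FPKM in scrambled cells. This further Dickkopf gene was high on day 9 in hairpin A and scrambled cells and not in hairpin B cells. It was not called with all libraries, and without the late hairpin B libraries it was called higher on day 9, at 2.25 ± 0.17 (SE), adjusted p = 2.88e-05, and lower on day 6, at -0.82 ± 0.17 (SE), adjusted p = 0.00553.

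Sfrp5, a secreted Frizzled-related protein of the foregut endoderm and the early heart region, rose on day 6 as well. Sfrp5 had 1.12, 0.886, 6.01 and 0.894 FPKM on days 0, 3, 6 and 9 in hairpin A cells, 0.645, 0.322, 2.81 and 1.18 FPKM in hairpin B cells, and 0.758, 0.6, 9.33 and 2.27 FPKM in scrambled cells. Its day 6 values lay above all day 0 values, at 1.83 ± 0.31 (SE), adjusted p = 0.0126, and at 2.17 ± 0.25 (SE), adjusted p = 0.000385 without the late hairpin B libraries. On day 9 its range overlapped day 0.

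Sfrp2, a Frizzled-related protein abundant in the stem cells, fell on days 6 and 9 in all 3 cultures. Sfrp2 had 70.2, 95.9, 18.6 and 24.8 FPKM on days 0, 3, 6 and 9 in hairpin A cells, 35.7, 75.5, 18.2 and 19.5 FPKM in hairpin B cells, and 43, 65.9, 13.7 and 14.4 FPKM in scrambled cells. The late values were all below those of day 0, with log2 differences of -1.46 ± 0.22 (SE), adjusted p = 0.00867 on day 6 and -1.27 ± 0.22 (SE), adjusted p = 0.0144 on day 9. With those hairpin B libraries left out they were -1.45 ± 0.26 (SE), adjusted p = 0.00292 and -1.22 ± 0.26 (SE), adjusted p = 0.00454. Sfrp1 had 35.7, 9.39, 46.1 and 33.4 FPKM on days 0, 3, 6 and 9 in hairpin A cells, 23.4, 8.16, 17 and 23.8 FPKM in hairpin B cells, and 25.7, 5.89, 49.7 and 31.6 FPKM in scrambled cells. Sfrp1, a related protein, fell on day 3, at -1.73 ± 0.37 (SE), adjusted p = 0.03, with no overlap between the days, and was in the day 0 range on day 9.

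Dkk3, the divergent Dickkopf family member, fell on days 3 and 6. Dkk3 had 6.17, 1.72, 2.01 and 7.28 FPKM on days 0, 3, 6 and 9 in hairpin A cells, 4.7, 0.816, 1.56 and 3.31 FPKM in hairpin B cells, and 5.52, 1.02, 2.31 and 6.61 FPKM in scrambled cells. The log2 differences were -1.58 ± 0.26 (SE), adjusted p = 0.0113 on day 3 and -1.13 ± 0.26 (SE), adjusted p = 0.034 on day 6, the second being -1.02 ± 0.19 (SE), adjusted p = 0.00367 without the late hairpin B libraries. On day 9 the range of Dkk3 overlapped day 0. Markers of fibroblasts and feeders moved in the same way on day 3: their summed FPKM was between 51.9 and 59.9 on day 0 and between 12.4 and 19.4 on day 3, and their part in the fall of Dkk3 and Sfrp1 was not tested.

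Among the nuclear and feedback genes, Lef1 fell by day 9. Lef1 had 15.5, 16.4, 11.4 and 6.62 FPKM on days 0, 3, 6 and 9 in hairpin A cells, 17.6, 19.5, 10.8 and 9.22 FPKM in hairpin B cells, and 21, 20.3, 11 and 5.36 FPKM in scrambled cells. All 3 day 9 values were below every day 0 value, and the log2 difference was -1.26 ± 0.19 (SE), adjusted p = 0.00992, or -1.46 ± 0.15 (SE), adjusted p = 0.00013 without the late hairpin B libraries. Tcf7, the other TCF/LEF factor of the set, was at its highest on day 3 in each culture. Tcf7 had 54.6, 80.7, 32.4 and 20.1 FPKM on days 0, 3, 6 and 9 in hairpin A cells, 50.5, 82.8, 44.9 and 52.9 FPKM in hairpin B cells, and 57.2, 86.9, 32.3 and 17.9 FPKM in scrambled cells. Day 9 levels of Tcf7 were low in hairpin A and scrambled cells but in the day 0 range in hairpin B cells. Tcf7 was not called on any day with all libraries, and without the late hairpin B libraries the day 9 difference was -1.47 ± 0.09 (SE), adjusted p = 1.36e-05.

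The direct targets Axin2 and Sp5 were not called on any day with all libraries. Axin2 had 4.9, 7.82, 7.15 and 15.9 FPKM on days 0, 3, 6 and 9 in hairpin A cells, 10.6, 11.4, 7.09 and 5.41 FPKM in hairpin B cells, and 5.96, 11, 6.85 and 14.1 FPKM in scrambled cells. Sp5 had 0.847, 3.86, 9.36 and 16.1 FPKM on days 0, 3, 6 and 9 in hairpin A cells, 15.4, 4.67, 4 and 0.716 FPKM in hairpin B cells, and 1.7, 4.58, 11.7 and 12.8 FPKM in scrambled cells. In hairpin A and scrambled cells Sp5 was highest on day 9. In hairpin B cells it was highest on day 0 and lowest on day 9. Axin2 showed the same order between its first and last day in hairpin B cells, and without the late libraries of that culture its day 9 difference was 1.04 ± 0.28 (SE), adjusted p = 0.0131.

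Braveheart depletion was tested on each day as the mean of hairpins A and B minus scrambled. With 1 scrambled library per day, the spread comes from the hairpin pairs, so the lone scrambled library is assumed to vary like them. The pairs of all days are pooled, so the late difference between the hairpins widens the SE on every day. For Dkk1 the SE was 1.74 on each day, and its day 9 difference of -2.06 had an unadjusted p of 0.279 by limma. A member that was not called is therefore not shown to be unchanged. By limma no member was called on day 0, 3, 6 or 9, where 0.0213%, 0.0284%, 0.0425% and 0.0354% of all 14108 genes were called in either direction. At an unadjusted p under 0.05 the members numbered 0, 0, 1 and 1 of 36, where 0.468%, 0.262%, 1.05% and 1.41% of all genes had such a p. The difference between the effects of days 9 and 0 was also called for none of the 36, of which 1 had an unadjusted p under 0.05, as did 1.11% of all genes. Without the day 9 library of hairpin A cells, 2 members were called lower on day 9.

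By size, Wnt2 was the 1 member at least 2-fold from scrambled in the same direction in both hairpins, on days 6 and 9. It reached 1 FPKM only in the scrambled libraries of those days and passed the filter through them alone, so its direction was fixed by the filter and is a description. This ligand is known from the early heart field, lung mesoderm and vasculature. In mm9 it lies on chromosome 6, from 17938939 to 17980445. Wnt2 had 0.105, 0.0873, 0.115 and 0.61 FPKM on days 0, 3, 6 and 9 in hairpin A cells, 0.0408, 0.0815, 0 and 0 FPKM in hairpin B cells, and 0.084, 0.0409, 1.93 and 4.5 FPKM in scrambled cells. The day 6 value of hairpin A cells and both late values of hairpin B cells were under the level of 3 reads on 1 kb. The difference was -1.47 ± 0.36 (SE), adjusted p = 1 on day 6 and -2.12 ± 0.36 (SE), adjusted p = 0.873 on day 9, so it did not pass the test. The share of all genes at least 2-fold higher and lower in both hairpins was 0.149% and 0.241% on day 0, 0.135% and 0.269% on day 3, 0.354% and 0.68% on day 6, and 0.191% and 0.659% on day 9. Beside these low levels, the summed FPKM of 5 blood markers on day 6 was 118 in hairpin A cells, 2.76 in hairpin B cells, where Hba-x and Hbb-y were under 0.5 FPKM, and 552 in scrambled cells, and the cardiomyocyte sums on day 9 are given above. Other marker sums of day 6 were ordered differently, given here for hairpin A, hairpin B and scrambled cells. Endothelium markers summed to 11.8, 28.7 and 28.5 FPKM, with Cdh5 under 0.5 FPKM in hairpin B cells. Primitive streak and mesoderm markers summed to 89.9, 19.7 and 57.0 FPKM, and endoderm markers to 55.2, 9.62 and 56.0 FPKM. The part of these cell types in the level of Wnt2 was not tested.

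The hairpins differed more from each other than hairpin A did from scrambled. On day 9 the median difference of the 36 members from scrambled was 0.12 on the log2 scale in hairpin A cells and -0.93 in hairpin B cells, where the medians of all genes were -0.03 and -0.10. In hairpin A cells no member was at least 2-fold higher and 1 was lower on day 9, where 0.468% and 1.17% of all genes were. In hairpin B cells 3 were higher (Fzd5, Sfrp4 and Tcf7) and 17 lower, in a library in which 9.9% of all genes were at least 2-fold higher and 13.5% lower. The 17 held 7 ligands (Wnt1, Wnt2, Wnt5a, Wnt5b, Wnt8a, Wnt8b and Wnt10b), 5 receptors (Fzd1, Fzd2, Fzd3, Fzd4 and Fzd6), the antagonists Dkk1, Dkk2 and Frzb, and both Axin2 and Sp5. Dkk1 was the largest, at -4.22. On day 6, hairpin A had 1 member at least 2-fold higher (Wnt8a) and 1 lower, beside 0.716% and 0.964% of all genes, and hairpin B had 2 higher (Wnt4 and Wnt7b) and 10 lower, beside 4.93% and 6.13% of all genes. These are single libraries with no replicate, and pluripotency markers were high in those of hairpin B cells, as given above.

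Hairpin B cells also differed in day 0 stem cells, before differentiation. Sp5 had 0.847 FPKM in hairpin A cells, 15.4 FPKM in hairpin B cells and 1.70 FPKM in scrambled cells. Wnt4 had 0.447 FPKM in hairpin A cells, 3.65 FPKM in hairpin B cells and 0.447 FPKM in scrambled cells, and Wnt7b had 0.346 FPKM in hairpin A cells, 2.59 FPKM in hairpin B cells and 0.574 FPKM in scrambled cells. Both also had their highest value of the time course in hairpin B cells, on day 6, at 5.56 FPKM for Wnt4 and 8.24 FPKM for Wnt7b. With Wnt8a, these were the 4 members at least 2-fold higher in hairpin B cells than in scrambled cells on day 0, and none was lower, where 2.1% and 1.28% of all genes were higher and lower. Axin2 was 0.74 higher on the log2 scale. T, a primitive streak gene and Wnt target, had 0.435 FPKM in hairpin A cells, 2.33 FPKM in hairpin B cells and 0.697 FPKM in scrambled cells. In hairpin A cells no member was 2-fold away on day 0, where 0.432% of all genes were higher and 0.624% lower. On day 3 no member was 2-fold from scrambled in either hairpin, where 0.617% and 0.773% of all genes were higher and lower in hairpin A cells and 0.361% and 0.602% in hairpin B cells. These day 0 values rest on 1 hairpin B library.

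**Figure D3:**
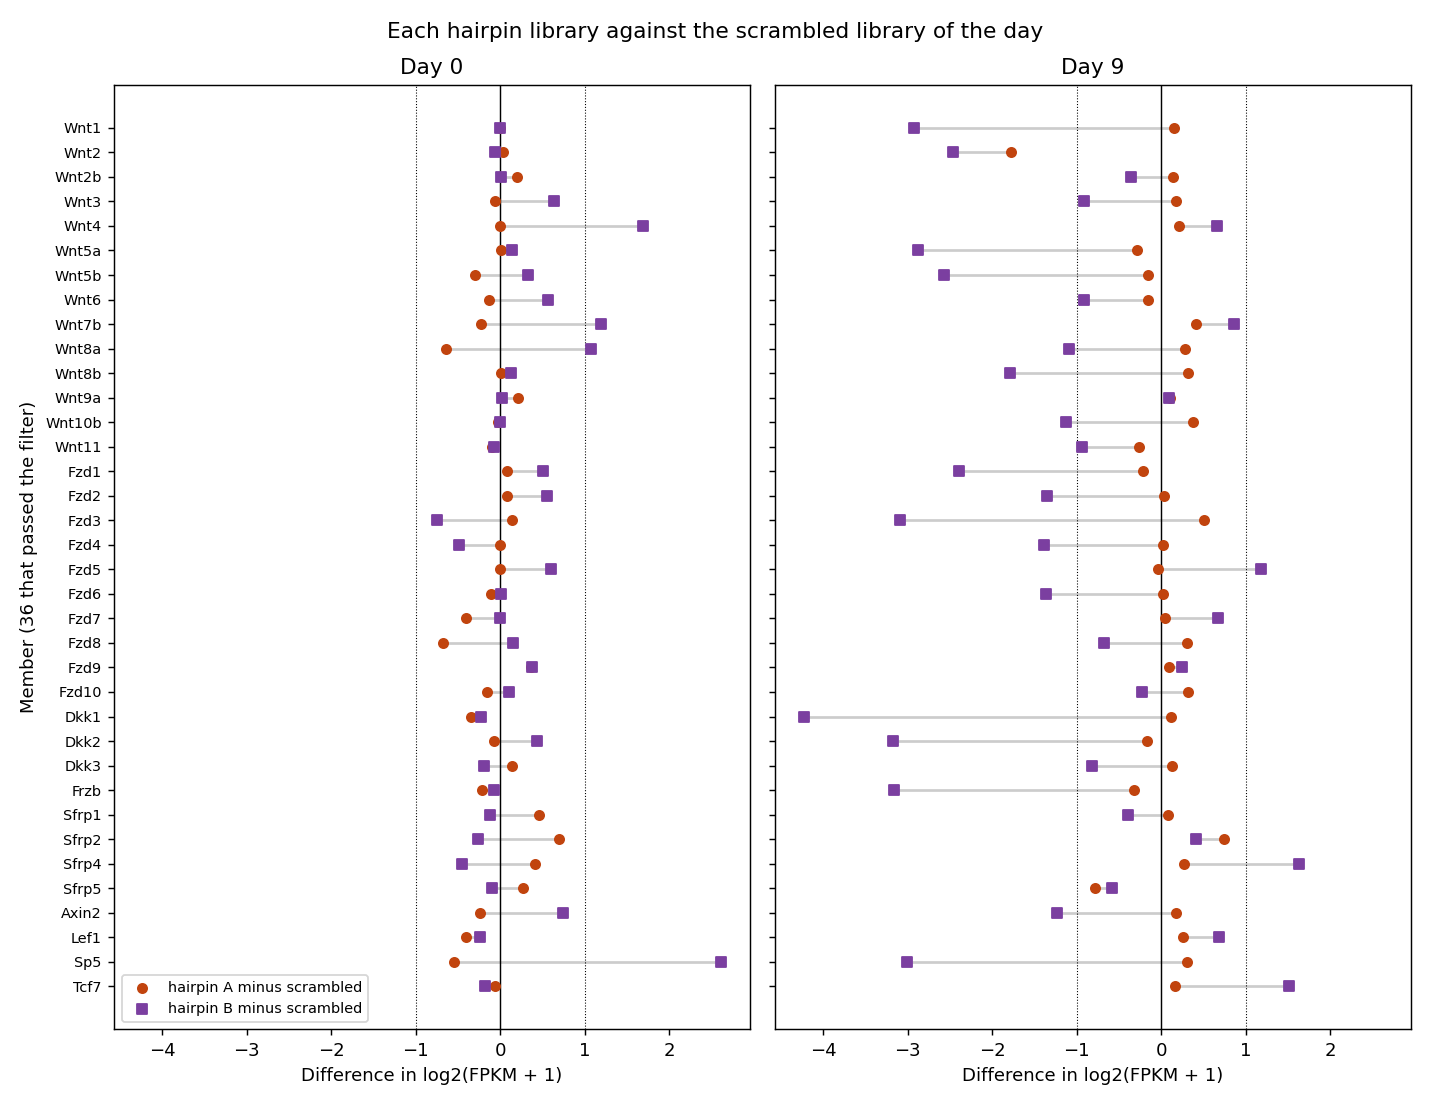
Difference in log2(FPKM + 1) from the scrambled library of the same day (horizontal axis, dotted lines at 2-fold) for hairpin A (circles) and hairpin B (squares), for the 36 members that passed the filter (rows), on day 0 (left) and day 9 (right). On day 0 Sp5 stands 2.61 higher in hairpin B cells, and on day 9 it stands 3.01 lower, whereas hairpin A lies within 2-fold of scrambled except for Wnt2 on day 9.

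In the discovery set, expected counts were tested with edgeR over all 8 libraries and 16773 entries, of which 33 were of the Wnt set. These were 32 symbols, since both Fzd10 entries passed the filter of 1 CPM in at least 2 libraries. The 11 that did not pass were Dkk1, Dkk4, Frzb, Wnt1, Wnt2, Wnt3a, Wnt7a, Wnt8b, Wnt9b, Wnt10a and Wnt10b. Of these, Frzb, Wnt2 and Wnt10b had 47.0, 44.0 and 34.0 reads in the single MEF library. Among the entries that passed, Wnt3 and Wnt8a did so through mESC libraries alone and Wif1 through the partially reprogrammed lines alone. Sp5, Sfrp5, Wnt6, Wnt7b and both Fzd10 entries did so through mESC and miPS libraries alone. Axin2, Dkk2, Dkk3, Sfrp2, Sfrp4, Wnt2b, Wnt4, Wnt9a and Wnt16 were under 1 CPM in both partially reprogrammed libraries and passed only through others. The direction of all these entries against libraries under 1 CPM was fixed by the filter, and counts and medians over the 33 are descriptions. MEF and miPS have 1 library each, so these libraries are assumed to vary like the other groups. TPM values stayed above 0 even where no read was assigned, so where a group held no read a fold is given as a lower bound against 3 reads over that group, and where it held 1 to 3 reads as a ratio with a 95% counting interval, which covers counting error only. The replicate libraries differed by more than sampling noise within each line.

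Against the MEF library, the 4 mESC libraries were higher for 7 of 33 entries and lower for 9, where 13.2% and 15.4% of all entries were called. Ligands divided into 2 that were higher, Wnt3 and Wnt8a, and 5 that were lower, Wnt5a, Wnt11, Wnt9a, Wnt2b and Wnt16. The nuclear and feedback genes Axin2, Sp5 and Tcf7 were higher and none was lower. Without the first or second E14 library the count was 8 or 7 entries. Feeder cells are fibroblasts, and 8 fibroblast markers summed to between 144 and 259 TPM in mESC libraries and 15966 TPM in the MEF library. The part of feeder RNA in mESC values of fibroblast-enriched members was not tested.

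Wnt3, a ligand required for the primitive streak, and Wnt8a had no read in MEFs. Wnt3 had 0.113 and 0.114 TPM in the partially reprogrammed lines, 0.763 TPM in miPS cells, 3.34 and 1.79 TPM in E14 mESCs, 6.7 and 4.53 TPM in v6.5 mESCs, and 0.112 TPM in MEFs. Wnt3 held 216 reads over the mESC libraries, which was at least 10.4-fold higher than in MEFs (adjusted p = 0.0244). Wnt8a had 0.12 and 0.122 TPM in the partially reprogrammed lines, 0.58 TPM in miPS cells, 4.21 and 2.44 TPM in E14 mESCs, 15.9 and 6.77 TPM in v6.5 mESCs, and 0.119 TPM in MEFs. Wnt8a was at least 16.4-fold higher in mESCs (adjusted p = 0.0279), and both v6.5 values were above both E14 values.

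The targets Sp5 and Axin2 and the transcription factor Tcf7 were high in mESCs. Sp5 had 0.209 and 0.206 TPM in the partially reprogrammed lines, 2.93 TPM in miPS cells, 20.4 and 11.7 TPM in E14 mESCs, 62 and 15.7 TPM in v6.5 mESCs, and 0.1 TPM in MEFs. With no read in MEFs against 1557 in mESCs, Sp5 was at least 74.7-fold higher in mESCs (adjusted p = 0.014). Axin2 had 0.851 and 1.1 TPM in the partially reprogrammed lines, 9.23 TPM in miPS cells, 21 and 20.5 TPM in E14 mESCs, 16.9 and 34.5 TPM in v6.5 mESCs, and 1.61 TPM in MEFs. Axin2 was higher in mESCs by 4.72 ± 0.65 (SE), adjusted p = 0.00533 on the log2 scale. Tcf7 had 3.97 and 2.48 TPM in the partially reprogrammed lines, 41.3 TPM in miPS cells, 70.6 and 63.6 TPM in E14 mESCs, 84.7 and 94.7 TPM in v6.5 mESCs, and 6.55 TPM in MEFs. Every mESC library was far above the MEF library for Tcf7, at 3.34 ± 0.54 (SE), adjusted p = 0.00854. Lef1 was not called between mESCs and MEFs.

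Wnt5a and Wnt11, ligands that act on cell movement, were highest in MEFs. Wnt5a had 0.626 and 2.97 TPM in the partially reprogrammed lines, 4.04 TPM in miPS cells, 3.15 and 2.19 TPM in E14 mESCs, 2.59 and 1.59 TPM in v6.5 mESCs, and 102 TPM in MEFs. Wnt11 had 2.06 and 3.06 TPM in the partially reprogrammed lines, 2.1 TPM in miPS cells, 1.72 and 1.47 TPM in E14 mESCs, 3.83 and 1.79 TPM in v6.5 mESCs, and 45.6 TPM in MEFs. Each of the 4 mESC values was below the MEF value, with log2 differences of -5.86 ± 0.70 (SE), adjusted p = 0.00373 for Wnt5a and -5.20 ± 0.61 (SE), adjusted p = 0.00347 for Wnt11. Wnt9a had 1.18 and 0.6 TPM in the partially reprogrammed lines, 2.17 TPM in miPS cells, 2.46 and 1.68 TPM in E14 mESCs, 4.96 and 2.68 TPM in v6.5 mESCs, and 20.2 TPM in MEFs. The log2 difference for Wnt9a was -3.23 ± 0.63 (SE), adjusted p = 0.0152. Wnt2b and Wnt16 were lower in mESCs at lower levels. Wnt2b had 0.62 and 0.524 TPM in the partially reprogrammed lines, 0.399 TPM in miPS cells, 0.453 and 0.294 TPM in E14 mESCs, 0.943 and 0.602 TPM in v6.5 mESCs, and 5.01 TPM in MEFs. Wnt16 had 1.74 and 1.21 TPM in the partially reprogrammed lines, 1.69 TPM in miPS cells, 1.18 and 1.43 TPM in E14 mESCs, 1.47 and 1.43 TPM in v6.5 mESCs, and 4.84 TPM in MEFs. Their log2 differences were -3.68 ± 0.55 (SE), adjusted p = 0.00676 and -2.09 ± 0.54 (SE), adjusted p = 0.0335.

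Of the antagonists, the Dickkopf genes Dkk3 and Dkk2 were lower in mESCs. Dkk3 had 0.831 and 0.241 TPM in the partially reprogrammed lines, 8.15 TPM in miPS cells, 9.91 and 9.56 TPM in E14 mESCs, 7.02 and 8.53 TPM in v6.5 mESCs, and 104 TPM in MEFs. Dkk2 had 0.142 and 0.144 TPM in the partially reprogrammed lines, 1.78 TPM in miPS cells, 1.79 and 0.748 TPM in E14 mESCs, 0.647 and 3.03 TPM in v6.5 mESCs, and 25 TPM in MEFs. The log2 differences were -3.93 ± 0.58 (SE), adjusted p = 0.00643 and -4.45 ± 0.78 (SE), adjusted p = 0.0154, and no mESC library overlapped the MEF library. Of the receptors, Fzd1 and Fzd6 were lower in mESCs. Fzd1 had 2.42 and 2.15 TPM in the partially reprogrammed lines, 1.8 TPM in miPS cells, 1.41 and 1.13 TPM in E14 mESCs, 2.98 and 3.41 TPM in v6.5 mESCs, and 15.3 TPM in MEFs. Fzd6 had 4.58 and 3.18 TPM in the partially reprogrammed lines, 1.96 TPM in miPS cells, 2.74 and 2.69 TPM in E14 mESCs, 4.23 and 5.85 TPM in v6.5 mESCs, and 9.07 TPM in MEFs. Their differences were -3.28 ± 0.38 (SE), adjusted p = 0.00338 and -1.63 ± 0.40 (SE), adjusted p = 0.03.

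Fzd10 was listed under 2 identifiers, ENSMUSG00000081683 and ENSMUSG00000089856, to which the authors' counting split reads, so the level of either entry is uncertain. The counts of entries above and below include both. The summed expected counts were 3.01 and 9.0 in the partially reprogrammed lines, 96.0 in miPS cells, 466.0 and 485.0 in E14, 375.25 and 285.96 in v6.5, and 1.0 in MEFs. The sum was not tested. Each entry by itself was called higher in mESCs than in MEFs (adjusted p = 0.0253 and 0.0154), and lower in partially reprogrammed cells than in mESCs (adjusted p = 0.0125 and 0.00913).

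**Figure D4:**
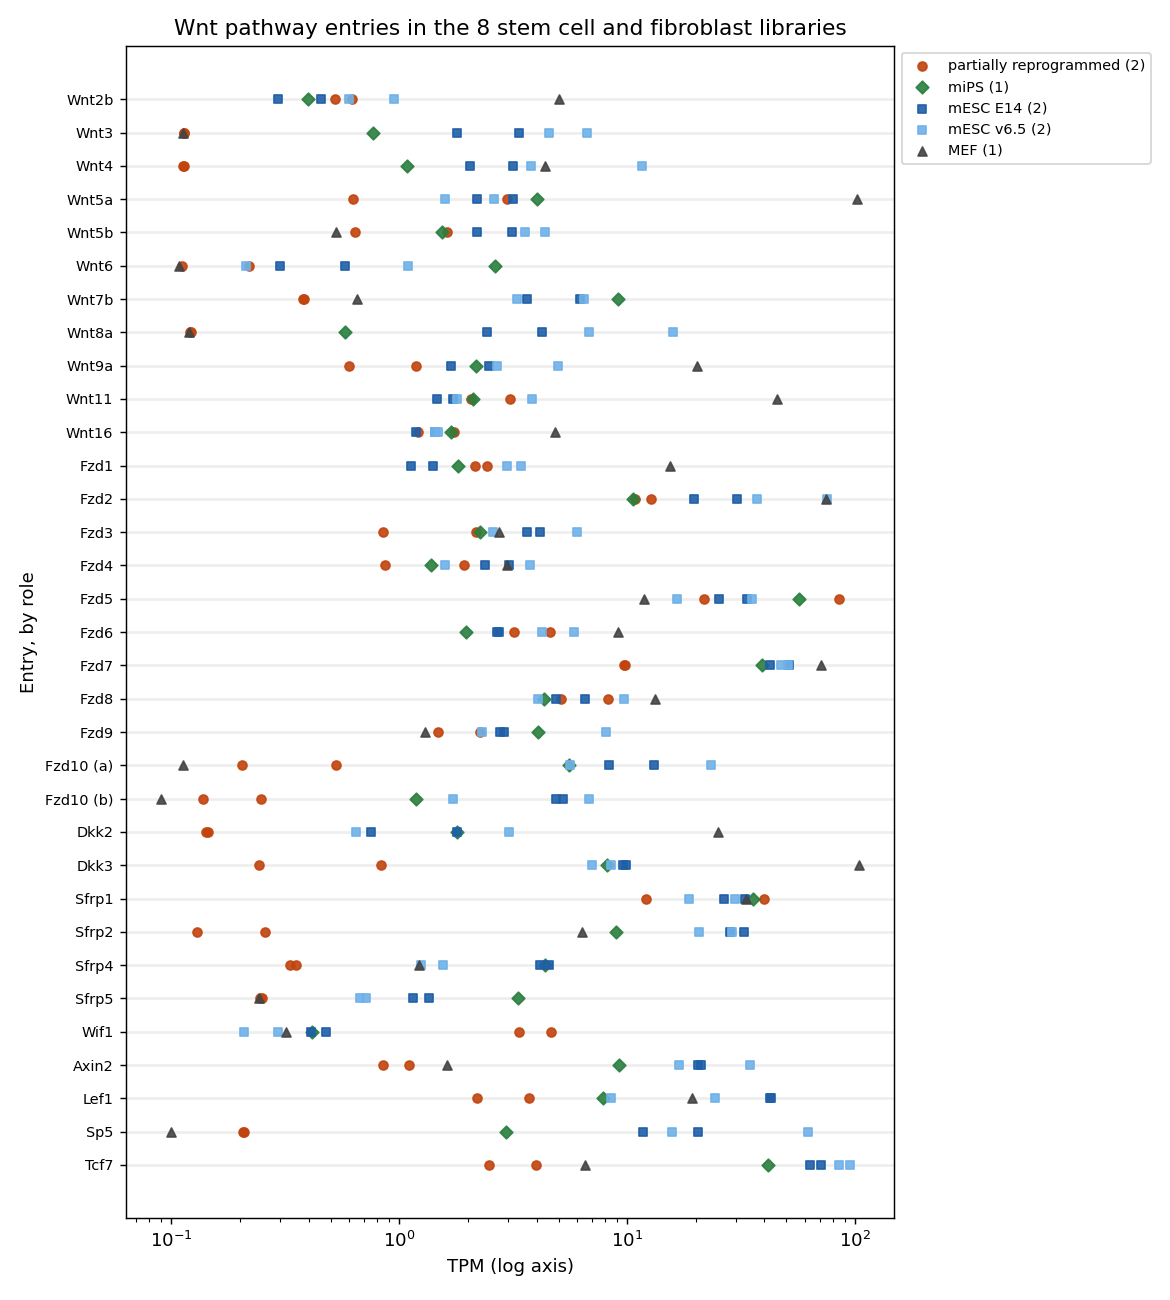
TPM on a log axis of the 33 tested entries (rows, by role, with the 2 Fzd10 entries marked a and b) in the 8 discovery libraries, 1 point per library, for partially reprogrammed, miPS, E14, v6.5 and MEF cells. Axin2, Sp5 and Tcf7 lie lowest in the partially reprogrammed and MEF libraries, and Wif1 lies highest in the 2 partially reprogrammed libraries.

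In partially reprogrammed cells, nearly all entries called against MEFs were lower, and so were nearly all entries called against mESCs. Axin2, Lef1, Wnt4, Dkk2, Dkk3, Sfrp2, Fzd2 and Fzd7 were called lower in both comparisons. Of these, Axin2, Wnt4, Dkk2, Dkk3 and Sfrp2 were under 1 CPM in both lines. The filter fixed their lower direction there, so it is a description. Against MEFs, 1 of 33 entries was higher (Wif1) and 14 were lower, where 4.95% and 8.87% of all entries were called. Against mESCs, 1 was higher (Wif1) and 17 were lower, where 13.6% and 16.1% of all entries were called. The median log2 difference of the entries was -1.58 against MEFs and -2.27 against mESCs, where the medians of all entries were 0.15 and -0.05, and neither median moved with low-read genes set at their bound. Both comparisons share the partially reprogrammed libraries. Against MEFs the count was 6 entries without 11.3, 6 without 11.5, and 7 without either E14 library alone. Against mESCs it was 10 without 11.3 or without 11.5. The 8 fibroblast and feeder markers summed to 21.9 and 10.4 TPM in the partially reprogrammed lines, grown without feeders, and 2 and 4 of them were under 0.5 TPM there, Dcn and Lum in both. The part of feeder RNA in the difference between these lines and mESCs was not tested. The pluripotency genes Nanog (0.951 and 1.67 TPM), Esrrb (0.618 and 0.534 TPM) and Zfp42 (1.59 and 0.971 TPM) were low in both lines. The values of Pou5f1, Klf4, Sox2 and Myc there can include reads of the retroviral genes, and the summed pluripotency markers, 9970 and 9704 TPM, hold 3 of these 4 genes.

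All 4 nuclear and feedback genes were lower in partially reprogrammed cells than in mESCs. Axin2 held 1 read over both lines against 2779 in mESCs, a 689-fold lower value (95% counting interval from 124 to 27200, adjusted p = 0.00121). Sp5 held 2 reads against 1557, a 193-fold lower value (from 53.3 to 1590, adjusted p = 0.00577). The log2 difference was -4.92 ± 0.44 (SE), adjusted p = 0.0018 for Tcf7. Lef1 had 3.71 and 2.18 TPM in the partially reprogrammed lines, 7.83 TPM in miPS cells, 42.8 and 42.3 TPM in E14 mESCs, 8.49 and 24.4 TPM in v6.5 mESCs, and 19.2 TPM in MEFs. Lef1 was -3.25 ± 0.55 (SE), adjusted p = 0.0092 against mESCs and -3.13 ± 0.64 (SE), adjusted p = 0.0274 against MEFs, so both comparisons were called lower. Axin2 was also lower than in MEFs, where 12 reads were found: 20.7-fold (from 3.06 to 883, adjusted p = 0.024).

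Among the ligands, Wnt3, Wnt4, Wnt7b and Wnt8a were lower than in mESCs and had no read in either partially reprogrammed library. The lower bounds were 17.8-fold for Wnt3 (adjusted p = 0.00896), 28.3-fold for Wnt8a (adjusted p = 0.0102), 26.7-fold for Wnt7b (adjusted p = 0.00848) and 21.2-fold for Wnt4 (adjusted p = 0.0146). Wnt7b had 0.377 and 0.383 TPM in the partially reprogrammed lines, 9.12 TPM in miPS cells, 6.21 and 3.63 TPM in E14 mESCs, 6.45 and 3.29 TPM in v6.5 mESCs, and 0.654 TPM in MEFs. Wnt4 had 0.112 and 0.114 TPM in the partially reprogrammed lines, 1.08 TPM in miPS cells, 3.14 and 2.05 TPM in E14 mESCs, 11.6 and 3.78 TPM in v6.5 mESCs, and 4.37 TPM in MEFs. Wnt7b is known from the lung and central nervous system, and Wnt4 from the kidney and gonad. Against MEFs, Wnt4 was at least 21.8-fold lower, with adjusted p = 0.0292.

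Against MEFs, 6 ligands were lower in the partially reprogrammed lines: Wnt4, Wnt5a, Wnt11, Wnt9a, Wnt2b and Wnt16. For Wnt5a the log2 difference was -6.27 ± 0.95 (SE), adjusted p = 0.0106, and the lines had 0.626 and 2.97 TPM against 102 TPM in MEFs. The differences were -5.18 ± 0.80 (SE), adjusted p = 0.011 for Wnt11 and -5.36 ± 0.88 (SE), adjusted p = 0.0134 for Wnt9a. Wnt2b and Wnt16 were lower by smaller amounts, at -3.55 and -3.32 (adjusted p = 0.024 and 0.0287).

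Fzd7 and Fzd2 were the receptors called lower in both comparisons, next to the Fzd10 entries against mESCs. Fzd7 had 9.68 and 9.81 TPM in the partially reprogrammed lines, 39.1 TPM in miPS cells, 51.5 and 42.4 TPM in E14 mESCs, 51 and 47.2 TPM in v6.5 mESCs, and 70.6 TPM in MEFs. Both lines lay below all other libraries, at -2.27 ± 0.25 (SE), adjusted p = 0.00275 against mESCs and -3.10 ± 0.31 (SE), adjusted p = 0.0033 against MEFs. Fzd2 had 10.9 and 12.7 TPM in the partially reprogrammed lines, 10.6 TPM in miPS cells, 30.4 and 19.6 TPM in E14 mESCs, 75 and 37.1 TPM in v6.5 mESCs, and 74.5 TPM in MEFs. The miPS value of Fzd2 was as low as those of the lines. The log2 difference was -1.60 ± 0.43 (SE), adjusted p = 0.0368 against mESCs and -2.86 ± 0.55 (SE), adjusted p = 0.0221 against MEFs. Fzd1 was lower only against MEFs, at -2.97 ± 0.46 (SE), adjusted p = 0.0116, and whether its 2 differences differ was not tested.

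Fzd5, the receptor that also fell late in the time course, and Fzd8 were not called in any discovery comparison. Fzd5 had 84.9 and 21.6 TPM in the partially reprogrammed lines, 56.8 TPM in miPS cells, 33.6 and 25.2 TPM in E14 mESCs, 35.3 and 16.6 TPM in v6.5 mESCs, and 11.8 TPM in MEFs. The 2 partially reprogrammed lines differed from each other, with the highest value of all in 11.3. Fzd8 had 8.24 and 5.12 TPM in the partially reprogrammed lines, 4.29 TPM in miPS cells, 6.56 and 4.88 TPM in E14 mESCs, 9.69 and 4.08 TPM in v6.5 mESCs, and 13.2 TPM in MEFs. All 8 values of Fzd8 lay between 4.08 and 13.2 TPM.

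Among the antagonists, Wif1, the secreted Wnt inhibitory factor, was the 1 entry higher in partially reprogrammed cells. Wif1 had 4.65 and 3.35 TPM in the partially reprogrammed lines, 0.415 TPM in miPS cells, 0.408 and 0.475 TPM in E14 mESCs, 0.292 and 0.208 TPM in v6.5 mESCs, and 0.318 TPM in MEFs. It held 71 reads over the 2 lines against 16 in 4 mESC libraries, at 4.56 ± 0.50 (SE), adjusted p = 0.00264, and against 1 read in MEFs, a 41.2-fold higher value (from 7.16 to 1650, adjusted p = 0.0254). In the time course Wif1 stayed under 1 FPKM in all 12 libraries.

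The Sfrp and Dkk genes were mostly lower in the lines. Sfrp2 had 0.257 and 0.13 TPM in the partially reprogrammed lines, 8.95 TPM in miPS cells, 32.4 and 28.2 TPM in E14 mESCs, 28.7 and 20.6 TPM in v6.5 mESCs, and 6.36 TPM in MEFs. It held 1 read against 1489 in mESCs, a 369-fold lower value (from 66.1 to 14600, adjusted p = 0.00189), and 84.4-fold less than in MEFs (from 14.5 to 3400, adjusted p = 0.00713). Sfrp4 had 0.353 and 0.332 TPM in the partially reprogrammed lines, 4.36 TPM in miPS cells, 4.53 and 4.15 TPM in E14 mESCs, 1.25 and 1.56 TPM in v6.5 mESCs, and 1.22 TPM in MEFs. The difference for Sfrp4 was -3.01 ± 0.51 (SE), adjusted p = 0.00894. Sfrp5 had 0.245 and 0.249 TPM in the partially reprogrammed lines, 3.31 TPM in miPS cells, 1.34 and 1.144 TPM in E14 mESCs, 0.671 and 0.714 TPM in v6.5 mESCs, and 0.243 TPM in MEFs. Sfrp5 had 2 reads against 54 in mESCs, a 6.69-fold lower value (from 1.77 to 56.7, adjusted p = 0.0335). Dkk2 had no read in either line. It was at least 102-fold lower than in MEFs (adjusted p = 0.0162) and at least 5.78-fold lower than in mESCs (adjusted p = 0.0462). For Dkk3 the log2 difference was -8.55 ± 0.94 (SE), adjusted p = 0.00407 against MEFs and -4.62 ± 0.80 (SE), adjusted p = 0.00989 against mESCs. Sfrp1 had 12.1 and 39.8 TPM in the partially reprogrammed lines, 35.8 TPM in miPS cells, 33 and 26.7 TPM in E14 mESCs, 29.6 and 18.6 TPM in v6.5 mESCs, and 33.2 TPM in MEFs. Sfrp1 was the exception among the abundant antagonists, with lines on either side of the other libraries and no call.

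No member was called between miPS cells and mESCs or between the mESC lines. In miPS cells against mESCs, edgeR called 0 members higher and 0 lower, where 0.0298% and 0% of all entries were called, DESeq2 called 0, and 9 of 33 had an unadjusted p under 0.05, as did 7.95% of all entries. Of these 9, 7 were lower in miPS cells (Sfrp2, Wnt3, Wnt8a, Axin2, Lef1, Sp5 and Fzd2) and 2 were higher (Sfrp5 and Wnt6). The TPM of Sp5 was 2.93 in miPS cells and between 11.7 and 62.0 in mESCs, that of Wnt8a was 0.58 in miPS cells and between 2.44 and 15.9 in mESCs, and that of Axin2 was 9.23 in miPS cells and between 16.9 and 34.5 in mESCs. These 3 miPS values lay below all 4 mESC values. Sfrp5 had 3.31 TPM in miPS cells and between 0.671 and 1.34 TPM in mESCs, and Wnt6 had 2.63 TPM in miPS cells and between 0.212 and 1.095 TPM in mESCs, so both lay above all 4. The median of the 33 entries was -0.55 on the log2 scale, and that of all entries was 0.01. These values rest on 1 miPS library. Between E14 and v6.5, edgeR called 0 members higher and 0 lower in E14 (0.149% and 0.34% of all entries), DESeq2 called 0, and 4 of 33 had an unadjusted p under 0.05, as did 18.7% of all entries. Without the second v6.5 library edgeR called 7 members, 1 higher and 6 lower in E14.

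The rest of the pathway was counted in lists of co-receptors and transducers, polarity genes, R-spondins and turnover genes, and Wnt targets. On day 9 of the time course, 4 of 27 tested transducers were higher and 1 was lower, where 10.3% and 6.22% of all genes were. Wls, which carries Wnt ligands to the cell surface, had the largest difference. Wls had 6.76, 11.4, 74.1 and 135 FPKM on days 0, 3, 6 and 9 in hairpin A cells, 14.2, 15.2, 27.4 and 13.8 FPKM in hairpin B cells, and 7.7, 12.6, 82.9 and 116 FPKM in scrambled cells. It was far higher on day 9 than on day 0 in hairpin A and scrambled cells and not in hairpin B cells, and the day 9 difference was 2.61 ± 0.75 (SE), adjusted p = 0.0454, or 3.67 ± 0.27 (SE), adjusted p = 2.55e-05 without the late hairpin B libraries. Of 12 turnover genes, 1 was higher and 2 were lower, with Cer1, a secreted antagonist of Nodal and BMP, at 2.27 ± 0.65 (SE), adjusted p = 0.0459, or 2.92 ± 0.13 (SE), adjusted p = 3.75e-06 without those libraries. Of 11 targets, 1 was higher (Bmp4) and none lower, and of 13 polarity genes, none was higher and 1 lower (Celsr3). Without the late hairpin B libraries the day 9 counts were 8 transducers higher and 8 lower, 7 polarity genes higher and 2 lower, 5 turnover genes higher and 3 lower, and 7 targets higher and 0 lower, where 35.6% and 24.5% of all genes were called. On day 3, where 3.26% and 2.78% of all genes were called, 1 transducer, 2 polarity genes and 1 turnover gene were higher, and 1 polarity gene, 1 turnover gene and 1 target were lower.

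On day 6, where 4.97% and 3.71% of all genes were called higher and lower, 3 transducers, 1 polarity gene, 1 turnover gene and 1 target were higher, 1 turnover gene was lower and none of the others was lower. Cer1 was the largest of these. Cer1 had 0, 0.176, 69.7 and 7.21 FPKM on days 0, 3, 6 and 9 in hairpin A cells, 0.051, 0.304, 10.7 and 1.07 FPKM in hairpin B cells, and 0, 0.152, 53.6 and 5.93 FPKM in scrambled cells. Its difference was 5.13 ± 0.65 (SE), adjusted p = 0.00385, or 5.96 ± 0.13 (SE), adjusted p = 2.57e-07 without the late hairpin B libraries. Without them, 8 transducers, 6 polarity genes, 4 turnover genes and 6 targets were higher on day 6, and 2, 1, 2 and 1 were lower, where 27.4% and 18.9% of all genes were called. The day 3 counts in that fit were 5, 5, 1 and 5 higher and 3, 1, 2 and 2 lower, where 14.5% and 12.6% of all genes were called. Depletion called none of the genes of these 4 lists on any day by limma.

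In partially reprogrammed cells against mESCs, where 13.6% and 16.1% of all entries were called higher and lower, none of 9 tested turnover genes was higher and 6 were lower (Rspo1, Rspo2, Rnf43, Kremen2, Lgr6 and Notum), among them Rspo1, a secreted amplifier of Wnt signalling, which had the largest fitted difference. Rspo1 had 0.115 and 0.115 TPM in the partially reprogrammed lines, 3.08 TPM in miPS cells, 2.31 and 1.57 TPM in E14 mESCs, 6.85 and 5.3 TPM in v6.5 mESCs, and 0.675 TPM in MEFs. Of 11 targets, 2 were higher (Myc and Ccnd1) and 4 lower (Nkd1, Nkd2, Bmp4 and T), and Myc can include reads of the retroviral gene. Of 28 transducers, 2 were higher and 2 lower, with Pygo1 the largest at -3.67 ± 0.86 (SE), adjusted p = 0.0247. Of 13 polarity genes, 3 were higher and 3 lower. Against MEFs, where 4.95% and 8.87% of all entries were called, the partially reprogrammed lines had 2 transducers, 1 polarity gene and 1 target (Myc) higher, and 4 transducers, 2 polarity genes, 2 turnover genes and 4 targets lower. In mESCs against MEFs, where 13.2% and 15.4% were called, 1 transducer, 4 polarity genes, 3 turnover genes and 1 target were higher, and 6 transducers, 3 polarity genes, 2 turnover genes and 2 targets were lower. Tle2, a Groucho family co-repressor, had the largest transducer difference. Tle2 had 3.15 and 2.83 TPM in the partially reprogrammed lines, 4.54 TPM in miPS cells, 2.62 and 2.14 TPM in E14 mESCs, 6.16 and 2.48 TPM in v6.5 mESCs, and 20.5 TPM in MEFs. The log2 difference in mESCs against MEFs was -4.26 ± 0.65 (SE), adjusted p = 0.00736.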

How the data were processed

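For the 12 time course libraries the authors deposited FPKM values (reads scaled to transcript length and library size) per gene. For the 8 discovery libraries the authors deposited expected counts and TPM values (transcript levels scaled to a fixed total). The submitters' processing notes list TopHat, Bowtie 0.12.7 and Cufflinks 1.3.0 for the time course and TopHat 1.3 and RSEM for the discovery libraries, with build mm9 for both and no annotation. TPM stayed above 0 where the expected count was 0 (median 0.455), so tests used the counts. The counting strand is not given, so overlapping and antisense genes are uncertain. A further 38 columns of per-sample values were not used.

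FPKM were tested as log2(FPKM + 1) with limma 3.58.1 in R 4.3.3, for the 14108 genes that reached 1 FPKM in 2 or more libraries. Expected counts were rounded and tested with edgeR 4.0.16 (quasi-likelihood), for the 16773 entries that reached 1 CPM in 2 or more libraries. DESeq2 1.42.0 was an alternative. P-values were adjusted by Benjamini-Hochberg over all genes, two-sided, with a threshold of 0.05. Every adjusted p in the text comes from these limma or edgeR fits. Differences are given as log2 ± SE. The scripts were tested on simulated data with known changes.

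The members and gene lists were chosen with earlier results of these data known. Named members are those called in a comparison, at most 25 of them, or at least 2-fold from scrambled in both hairpins. Other genes are named where they are largest in a list. Each culture is 1 cell line followed through the days, and deviations within a culture correlated by -0.091 to 0.642, with 0.339 in hairpin A cells, 0.642 in hairpin B cells and 0.447 in scrambled cells between days 6 and 9. Alternatives were other pseudocounts, filters and scalings, a replicate block for the culture, and leaving out each library.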

Additional observations from a re-analysis of the deposited data

How the results depend on the processing

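No called member's difference reversed under any alternative run. In the time course, without a filter on low FPKM 1, 4 and 4 members were called on days 3, 6 and 9, against 3, 9 and 9 with it. With the culture as a replicate block, 6 and 15 were called on days 3 and 9, and the count of day 6 stayed within 1.5 times. The replicate block left the depletion counts at 0 on every day and the count between E14 and v6.5 at 0. Without the hairpin B libraries of days 6 and 9, the counts were 14, 25 and 28. Leaving out single libraries gave from 0 to 9 members on day 3, 0 to 18 on day 6 and 0 to 27 on day 9, and no member called in the time course kept its call in every alternative. For depletion, leaving out single libraries gave 0 to 2 on day 9, and the number at least 2-fold from scrambled was 0 to 4 on day 0, 2 to 12 on day 6 and 1 to 20 on day 9. With a pseudocount of 0.1 FPKM it was 1 on day 3 and 2 on day 6. In the discovery set, leaving out single libraries gave 7 to 22 members for mESCs against MEFs, 6 to 17 for partially reprogrammed cells against MEFs, 10 to 20 against mESCs and 0 to 7 for E14 against v6.5. Calls kept in every alternative numbered 7 of 16 for mESCs against MEFs. For partially reprogrammed cells they numbered 4 of 15 against MEFs (Dkk3, Fzd7, Sfrp2 and Wnt5a). Against mESCs they numbered 9 of 18 (Axin2, Dkk3, Fzd7, Sfrp2, Tcf7, Wif1, Wnt3, Wnt7b and Wnt8a). Of these 9, Wif1, Wnt3, Wnt7b and Wnt8a passed the filter only through libraries where they were high, as did Sp5 among the 7. Axin2, Dkk3 and Sfrp2 were under 1 CPM in both partially reprogrammed libraries and passed only through others. The filter thus fixed the direction of these calls in partially reprogrammed cells, and of Sp5 in mESCs, so a kept call is a description. This holds for Dkk3 and Sfrp2 among the 4 against MEFs as well. The cause of these changes was not tested. With 1 library per culture and day, and 1 each for MEF and miPS cells, small differences were not detectable, and low ligands lay near the level of 3 reads.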
